A study of Mus musculus with 3 samples.

Results

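The 10 genes described here are hormones and other factors that fat secretes, together with both receptors of one of them, and they were followed through 3 fractions of mouse epididymal fat. They are Adipoq, Retn, Lep, Cfd, Rbp4, Nampt, Agt, Apln, Adipor1 and Adipor2, and they were chosen by name, which took in every probe that is not a control and that the array annotation assigns to one of them. This gave 17 of 56602 probes, for 10 of the 37324 genes that the arrays read. Adipor1 had 4 probes, Adipor2 had 3, Retn and Cfd had 2 each, and the other 6 genes had 1.

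The fractions came from male C57/BL mice aged 20 weeks, whose epididymal fat was treated with collagenase and spun at 9 g for 1 s. The pellet of this spin was the stromal vascular cells (SVC), a mixture of the cells of fat other than adipocytes. A further spin of the floating cells at 226 g for 3 min left the mature adipocytes (MA) on top and, as sediment, a fraction that the labels call small proliferative adipocytes (SPA). SVC and SPA were grown in DMEM up to 90% confluency before RNA extraction and no culture is described for MA, so the kind of cell and its culture cannot be told apart where MA is compared with either of them. The labels name no genetic change and no drug in any group. Each group was 1 sample on 1 array. No comparison therefore has a replicate check, and differences are given without tests or p-values. The labels do not say how many mice a sample pools, and the titles give SVC and SPA 1 date and MA another, which also cannot be told apart from the groups.

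White adipocytes are endocrine cells. They release peptide hormones that act on appetite, on insulin sensitivity and on vessels, and many of these genes are switched on late in adipogenesis, under PPARγ and C/EBPα, when the cell starts to store lipid. Adiponectin and leptin circulate as signals from fat to liver, muscle and brain, adipsin is a protease of the alternative complement pathway, and other products, such as NAMPT and angiotensinogen, are also made by many cells outside fat.

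The arrays carry 60-base probes, and the following ones are printed because they belong to genes whose courses are described here. Adipoq, Retn and Cfd had the steepest course, Lep a shallow one, and Adipor1 and Adipor2 are the flat and the rising receptor. Positions are in mm9 as the array annotation gives them. For Retn, Cfd and the receptors the printed probe is not the one at which the gene was read. The Adipor1 and Adipor2 probes shown span 1046 and 2350 bases of the genome and so join 2 separate stretches of it. Of the 60 bases of the Cfd probe, the 32 capitals mark those that it shares with the other Cfd probe. The Cfd probes thus report overlapping stretches of transcript. The exon or UTR that each probe lies in was not determined here.
Adipoq, chr16:23157576-23157635, plus strand: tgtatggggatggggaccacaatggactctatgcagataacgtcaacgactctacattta
Retn, chr8:3657312-3657371, plus strand: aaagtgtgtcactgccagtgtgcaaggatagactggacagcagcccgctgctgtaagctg
Lep, chr6:29020910-29020969, plus strand: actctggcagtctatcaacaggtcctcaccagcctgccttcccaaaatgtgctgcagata
Cfd, chr10:79355274-79355333, plus strand: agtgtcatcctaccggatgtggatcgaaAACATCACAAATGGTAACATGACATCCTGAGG
Adipor1, chr1:136321459-136322504, plus strand: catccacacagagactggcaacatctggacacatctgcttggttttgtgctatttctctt
Adipor2, chr6:119309501-119311850, minus strand: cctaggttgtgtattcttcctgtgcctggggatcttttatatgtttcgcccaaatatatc

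The level of a gene is the log2 of the signal of its probe over the 75th percentile of the array, so a level of 0 is the brightness that 75% of the probes stay under. For a gene with several probes, the probe whose mean level over the arrays was highest stood for the gene. A probe that the scanner software did not mark as well above background has only a bound on that array, and a fold against it is written as at least that size. Levels are compared between fractions for 1 probe and never between genes, since probes differ in brightness for the same amount of RNA. Of the 59305 spots of an array that are not controls, 58.6% to 61.4% were well above background and 0 were saturated. The software gives each spot an error of at least 10% of its signal, which makes 0.20 on the log2 scale for the ratio of 2 bright spots. This spot error covers 1 spot on 1 array and neither mice nor cultures. The log2 ratio also varied between the probes of 1 gene, which is a further measure of how closely a ratio is known. Across genes with several probes, the median SD was 0.14 for SPA over SVC and 0.28 for MA over SPA. Retn, Cfd, Adipor1 and Adipor2 had wider spreads. Their SDs were 0.60, 0.17, 0.40 and 0.32 for SPA over SVC, and 0.64, 0.48, 0.61 and 0.65 for MA over SPA.

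The label of each fraction was set against markers. All 5 adipocyte markers were at least 5-fold higher in MA than in SPA, and 3 of them (Plin1, Fabp4 and Cidec) also passed 5-fold between SVC and SPA, with SPA higher. The log2 of the summed scaled signal of the adipocyte list was 3.06 in SVC, 5.79 in SPA and 10.65 in MA, and Plin1 was the 1 marker of the list that SVC did not show well above background. All 6 macrophage markers were well above background in every fraction, with a summed level of 9.08 in SVC, 9.24 in SPA and 7.52 in MA. A sum weighs the brightest probe of a list most, here Lyz2 at 8.74, 8.81 and 6.94, and need not show the course of each marker. Between SPA and MA, 3 of the 6 macrophage markers were at least 2-fold lower in MA, and Mrc1 was 1.73-fold higher. MA also carried signal of blood and vessels. All 4 erythrocyte markers and all 5 endothelial markers were at least 5-fold higher there than in SPA, with summed levels that went from -1.52 to 9.37 and from 1.23 to 4.78. Of 5 mesothelial markers, 4 were at least 5-fold lower in SPA than in SVC and at least 5-fold higher in MA than in SPA, and the summed level was 4.25, 2.49 and 4.28 in SVC, SPA and MA. None of the 4 markers of epididymal epithelium was well above background in SPA or MA, and 1 was in SVC. In such mixed samples, fewer cells of a type and less RNA per cell cannot be told apart.

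**Figure D1:**
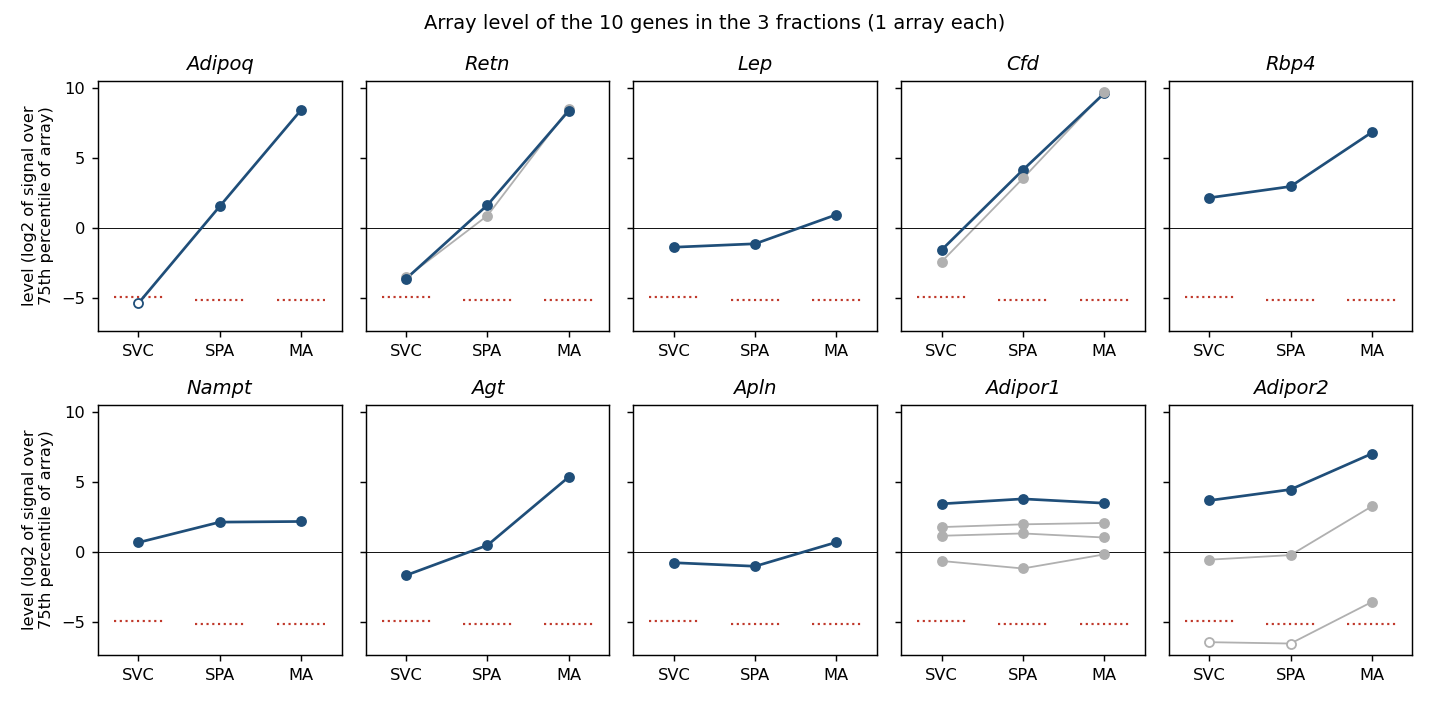
Levels of the 10 genes (y axis, log2 of the signal over the 75th percentile of the array) in the 3 fractions (x axis, 1 array each). Blue lines are the probes at which genes were read, grey lines their other probes, open circles are spots not well above background and dotted lines the lowest level well above background on that array. Adipoq, Retn and Cfd climb at both steps, Nampt stops climbing after SPA, and Adipor1 stays level.

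Adipoq encodes adiponectin, a hormone made almost only by adipocytes that raises insulin sensitivity. Its level was -5.36 in SVC, where the spot was not well above background, 1.56 in SPA and 8.44 in MA, from processed signals of 10.5, 1299 and 127361. Compared with SVC, Adipoq was thus at least 91.6-fold higher in SPA, and MA exceeded SPA by 118-fold. Its order was SVC below SPA below MA, at log2 ratios of at least 6.52 and of 6.88, and over both steps together the log2 ratio was at least 13.40. The bounds depend on the background correction and its offset. With normexp and an offset of 50 they came to 4.23 for SPA over SVC and 10.998 for MA over SVC, both still past 5-fold.

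Retn encodes resistin, which in mice is a hormone of adipocytes that counters insulin action. The level at the probe read, at chr8:3659757-3659816, was -3.61 in SVC, 1.66 in SPA and 8.39 in MA. Unlike Adipoq, the Retn transcript was well above background in SVC, though the raw signal there was only 2.15 times the local background. The step from SVC to SPA was 38.5-fold and that from SPA to MA had a log2 ratio of 6.74. The other probe gave the same order with a different split of the steps, at log2 ratios of 4.42 and 7.64 against 5.27 and 6.74. For MA over SVC the probes gave log2 ratios of 12.004 and 12.065. With the normexp correction, the log2 ratio of SPA over SVC at the probe read came to 3.91 and that of MA over SVC to 10.58, so the faint SVC spot bears on both.

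Cfd encodes adipsin, or complement factor D, the protease that starts the alternative complement pathway by cutting factor B. Its level at the probe read, at chr10:79355302-79355361, was -1.56 in SVC, 4.16 in SPA and 9.63 in MA. Cfd was well above background in all 3 fractions, and it was higher by 52.6-fold from SVC to SPA and by 44.3-fold from SPA to MA. The scanner software marked the local background of this spot as outlying on all 3 arrays. The overlapping probe, which carried no such mark, had levels of -2.40, 3.55 and 9.70 and gave 61.9-fold and 71.2-fold. Both probes put each step of Cfd far above 5-fold.

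Lep encodes leptin, the satiety hormone whose level in blood follows fat mass. Its level was -1.36 in SVC, -1.12 in SPA and 0.97 in MA, from processed signals of 167, 202 and 714. At this probe, Lep showed no step from SVC to SPA of the kind that Adipoq, Retn and Cfd had. The 1.19-fold difference between SVC and SPA was 1.18 times its spot error, so these neighbours are not separated by it. MA was 4.23-fold higher than SPA, under the 5-fold limit, and 5.02-fold higher than SVC, just past it. That last call was lost with another background correction, at a log2 ratio of 1.93, and with the ratios that the authors deposited, at 2.31. All 3 Lep spots were well above background, with raw signals 6.12, 6.75 and 22.3 times the local background.

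Rbp4 encodes the carrier of retinol in blood. At its probe, chr19:38191129-38191188 on the minus strand, the level was 2.17 in SVC, 2.98 in SPA and 6.85 in MA. Nearly the whole difference lay between SPA and MA, at 14.6-fold, against 1.75-fold between SVC and SPA. The smaller step was 3.96 times its spot error. Agt encodes angiotensinogen, from which renin releases angiotensin I. The level of Agt, at chr8:127080661-127080720 on the minus strand, was -1.67 in SVC, 0.48 in SPA and 5.35 in MA, so SPA exceeded SVC by 4.43-fold, just under the 5-fold limit, and MA exceeded SPA by 29.4-fold. Agt therefore stood with Adipoq, Retn and Cfd in differing by 2-fold or more at both steps.

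Nampt encodes an enzyme of NAD synthesis that is also found in blood under the name visfatin. At chr12:33535475-33535534, its level was 0.67 in SVC, 2.13 in SPA and 2.17 in MA. SPA exceeded SVC by 2.74-fold, and the level then differed by 1.03-fold between SPA and MA, 0.22 times the spot error. Nampt was the 1 gene of the 10 with a 2-fold difference at the first step and none at the second. Apln encodes apelin, a vasoactive peptide that adipocytes and endothelial cells both make. The level of Apln, at chrX:45378593-45378652 on the minus strand, was -0.78 in SVC, -1.03 in SPA and 0.69 in MA. It was 1.19-fold lower in SPA than in SVC, which is 1.23 times the spot error, and 3.29-fold higher in MA than in SPA. Of the secreted factors Apln was the only 1 with a lower level in SPA than in SVC, by a difference that the spot error does not resolve.

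Adipor1 and Adipor2 encode the receptors of adiponectin, 7-pass membrane proteins that signal through AMPK and PPARα. Adipor1 stayed near level, with 3.43 in SVC, 3.78 in SPA and 3.48 in MA at the probe read, at chr1:136328244-136328303, and none of the 3 differences reached 2 times its spot error. At its other 3 probes the log2 ratio of MA over SPA was 0.10, -0.29 and 1.00. The last of these comes from the faintest of the 4 probes, whose spots in SVC and SPA had outlying local backgrounds, a mark that the SPA spot of the probe read carried too. The direction of Adipor1 thus differed between its own probes and is not settled. Adipor2 had a level of 3.67 in SVC, 4.46 in SPA and 7.02 in MA at the probe read, at chr6:119303222-119303281. The first step of Adipor2 was 1.72-fold and the second, between SPA and MA, 5.90-fold. The probe printed above gave 1.25-fold and 11.2-fold, again with the larger step between SPA and MA. A further Adipor2 probe was well above background only in MA, where it was at least 2.93-fold higher than in SPA. Of the receptors, Adipor2 thus passed the 5-fold limit in MA, while Adipor1 stayed within 2-fold in every comparison at the probe read.

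Taking 5-fold as the limit, which the study used as well, 3 of the 10 genes (Adipoq, Retn and Cfd) were higher in SPA when set against SVC, beside 0.32% of the genes tested. None was at least 5-fold lower, against 0.351%. Between SPA and MA, 6 of the 10 (these 3, Rbp4, Agt and Adipor2) were at least 5-fold higher in MA, against 5.47% of the genes tested, and none was lower, against 3.97%. For MA over SVC the count was 7 of 10, with Lep added, against 5.72%, and again none was lower, against 3.96%. The genes nearest the limit were Agt at 4.43-fold for SPA over SVC, Lep at 4.23-fold and Adipor2 at 5.90-fold for MA over SPA, and Lep at 5.02-fold for MA over SVC. The median log2 ratio of the 10 genes was 1.13 for SPA over SVC and 3.22 for MA over SPA, beside 0.07 and -0.07 over all genes with a ratio. The comparisons share the SPA array, and several of the 10 genes were named in the study for differences on these arrays, so the counts describe the genes and are no separate evidence. The adipocyte markers move in the same direction at both steps. The endothelial and erythrocyte sums changed little from SVC to SPA (1.06 to 1.23 and -1.68 to -1.52) and were higher in MA. The mesothelial sum was lower in SPA and higher again in MA, and the sums in SVC, SPA and MA were 7.89, 6.74 and 8.51 for the fibroblast list and 9.505, 8.36 and 5.78 for the smooth muscle and pericyte list. The part of these lists and of the macrophage list in the differences was not tested.

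**Figure D2:**
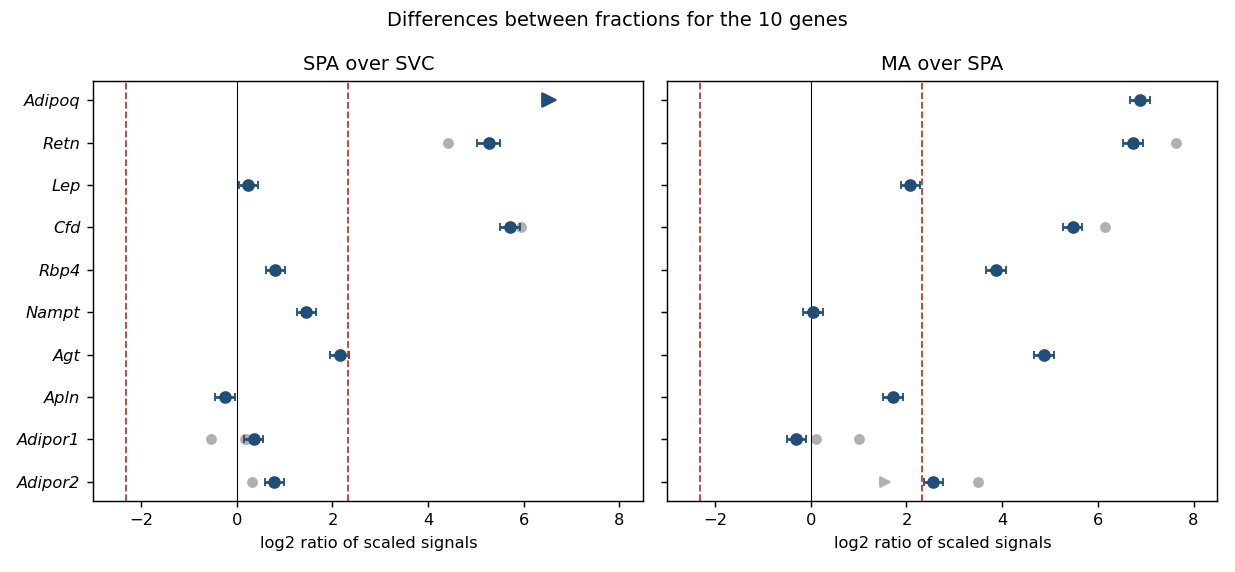
Log2 ratios (x axis) of the 10 genes for SPA over SVC and MA over SPA. Blue circles are the probes read with the error of the spots as bars, blue triangles lower bounds, grey symbols the other probes and dashed red lines the 5-fold limit in each direction. Adipoq, Retn and Cfd lie past the limit in both panels, and Rbp4, Agt and Adipor2 only in the right one.

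With a limit of 2-fold, a setting chosen after the values were seen, 5 of 10 genes were higher in SPA than in SVC, against 3.89%, and 8 of 10 were higher in MA than in SPA, against 15.7%. None was 2-fold lower, against 3.24% and 18%. The 10 genes then fell into 4 courses. Adipoq, Retn, Cfd and Agt were higher at both steps, which 199 of 22454 genes with both ratios (0.886%) were. Nampt was higher at the first step and under 2-fold at the second, as 0.958% of those genes were. Lep, Rbp4, Apln and Adipor2 were under 2-fold at the first step and higher at the second, a course that 11.7% had. Adipor1 was under 2-fold at both, as 64.7% were. For MA over SVC, 9 of 10 were at least 2-fold higher, against 17.2%, none was 2-fold lower, against 18%, and the exception was Adipor1.

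**Figure D3:**
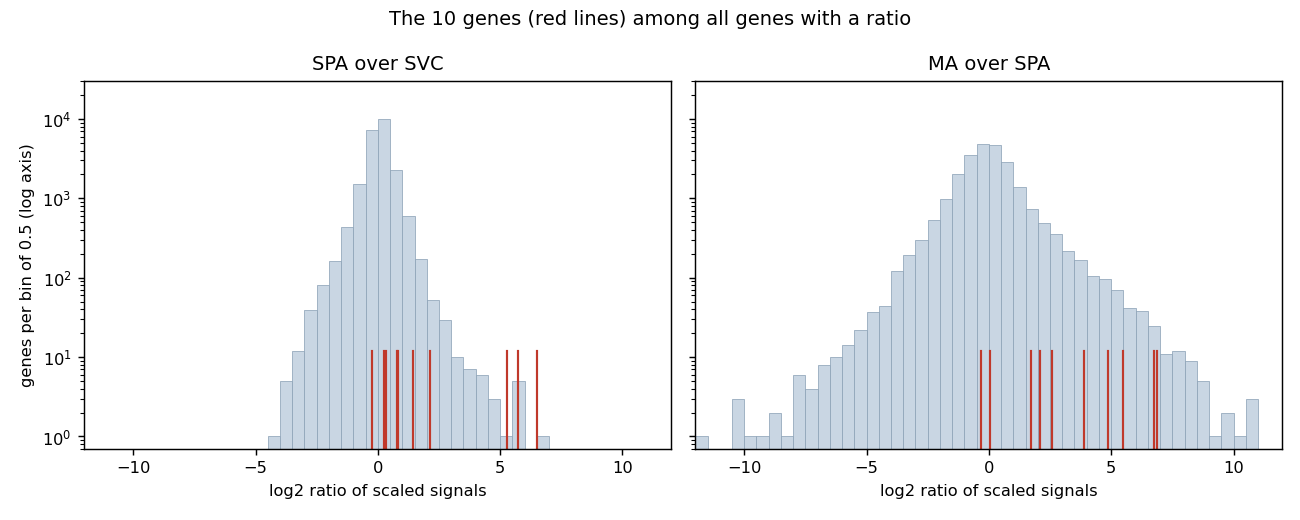
Distribution of the log2 ratio (x axis, bins of 0.5) over all genes with a ratio, lower bounds included (y axis, genes per bin on a log axis), with the 10 genes as red lines. For SPA over SVC the lines of Adipoq, Retn and Cfd stand furthest right, at 5.27 and above, and Agt is next at 2.15, and for MA over SPA the distribution is wider and 6 lines lie past 5-fold.

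The genes whose course over the 3 arrays lay nearest to that of a member were found by Euclidean distance between centred levels, among 19970 genes that were well above background on all 3 arrays. With 3 arrays this is a coarse measure and a description only. Retn lay nearest to Cidec, a protein of the lipid droplet, at a distance of 0.56, and then to Cfd at 0.91 and to Plin4 at 1.13. Cfd lay nearest to Plin4, which coats lipid droplets, at 0.30, and then to the carbonic anhydrase gene Car3 at 0.62. Among the genes compared, 0 lay within 0.5 of Retn and 1 within 0.5 of Cfd. Steep genes that SVC did not show well above background, such as Plin1, could not enter. These counts therefore do not show how rare such courses are. Agt lay nearest to Slc2a4, the insulin-responsive glucose transporter, at 0.42, followed by the pericyte marker Rgs5 at 0.43 and by Cdo1 at 0.46. The nearest genes to Rbp4 were Agpat2, an enzyme of triglyceride synthesis, Ankef1 and Echdc3, at distances of 0.10, 0.11 and 0.12. Nampt lay nearest to Kcne4, Scrt2 and Sema3c, at 0.05, 0.06 and 0.10. Matn2 and Mgst3 were among the genes nearest to Adipor2, at 0.08 and 0.09. The courses of Lep, Apln and Adipor1 were common ones, with 667, 1126 and 7508 genes within 0.5, so their nearest genes are not singled out. Adipoq was not compared because its spot in SVC was not well above background.

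The sequence just before the gene start is shown for the steep genes, Adipoq, Retn and Cfd, and for Lep, which did not share their first step. Each window runs from 250 bases before to 50 after the start in RefSeq, assembly GRCm38.p6, and the 10 genes have 12 such windows. The motifs were searched on both strands, and matches are in capitals. The half-site of many nuclear receptors was searched as AGGTCA. The core of sites for the C/EBP proteins was searched as TTGCNNAA. A box for the trimeric factor NF-Y was searched as CCAAT. The box found before many tissue-restricted genes was searched as TATAAA. The E-box bound by several helix-loop-helix proteins was searched as CACGTG. Finally, the GC box of Sp factors was searched as GGGCGG.
Adipoq promoter, chr16:23146286-23146585, plus strand: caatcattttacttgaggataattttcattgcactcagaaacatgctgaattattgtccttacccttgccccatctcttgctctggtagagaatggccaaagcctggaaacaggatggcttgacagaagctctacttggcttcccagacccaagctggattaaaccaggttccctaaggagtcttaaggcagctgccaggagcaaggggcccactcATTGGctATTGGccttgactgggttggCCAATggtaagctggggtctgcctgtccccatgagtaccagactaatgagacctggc
Retn promoter, chr8:3655520-3655819, plus strand: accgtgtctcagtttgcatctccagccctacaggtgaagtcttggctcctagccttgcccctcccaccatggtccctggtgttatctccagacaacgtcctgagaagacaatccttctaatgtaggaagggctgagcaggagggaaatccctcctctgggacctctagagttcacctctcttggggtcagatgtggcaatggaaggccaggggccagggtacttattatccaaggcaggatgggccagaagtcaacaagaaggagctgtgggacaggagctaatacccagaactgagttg
Cfd promoter, chr10:79890603-79890902, plus strand: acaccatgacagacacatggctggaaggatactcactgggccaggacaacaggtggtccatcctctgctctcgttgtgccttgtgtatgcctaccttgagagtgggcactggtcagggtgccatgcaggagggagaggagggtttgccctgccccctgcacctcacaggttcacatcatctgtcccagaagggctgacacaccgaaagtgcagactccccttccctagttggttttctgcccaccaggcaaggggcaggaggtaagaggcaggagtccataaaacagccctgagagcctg
Lep promoter, chr6:29059971-29060270, plus strand: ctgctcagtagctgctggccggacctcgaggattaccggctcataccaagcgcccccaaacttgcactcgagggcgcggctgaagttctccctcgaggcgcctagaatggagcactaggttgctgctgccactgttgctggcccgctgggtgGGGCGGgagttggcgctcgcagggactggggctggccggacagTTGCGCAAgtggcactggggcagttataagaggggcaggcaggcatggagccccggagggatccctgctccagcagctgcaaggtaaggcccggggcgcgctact
Adipoq held 3 CCAAT matches, at -34, -27 and -7 from the start. Lep held a C/EBP core at -55 that reads the same on both strands and a GC box at -98. Retn and Cfd held none of the 6 motifs in this window, so the steep genes had no motif of the search in common. No 2 matches in the printed windows overlapped, apart from the Lep core read on both strands. Over all 32851 windows of this length, 37.4% held the CCAAT box, 10.8% the C/EBP core, 35.7% the GC box, 16.3% the nuclear receptor half-site, 13.6% the TATA box and 7.15% the E-box. Of the 10 genes, 5 held a GC box, 3 a CCAAT box, 2 the C/EBP core (Lep and Rbp4), 2 a TATA box (Agt and Rbp4), 1 the half-site (Nampt) and 0 the E-box. The shares above are per window, and some genes have more than 1 window. Of the 12 windows, 6 held a GC box, 3 a CCAAT box, 2 the C/EBP core, 2 a TATA box, 1 the half-site and 0 the E-box. A match is a description of the letters and says nothing about binding.

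Genes that act with or beside the 10 were read from 11 lists, which hold 88 genes, 85 of them on the arrays by name. Of 73 tested for SPA over SVC, 0 were at least 5-fold higher and 0 lower, which is near the 0.32% and 0.351% of all genes tested and so says nothing particular about the lists. For MA over SPA, 22 of 80 (27.5%) were at least 5-fold higher and 2 lower, beside 5.47% and 3.97% of all genes tested, with a median log2 ratio of 0.94. Of these 24 genes, 18 stayed past 5-fold under every alternative setting that gave them a value.

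Of 8 genes for the action and assembly of adiponectin, 2 were at least 5-fold higher in MA than in SPA and 0 lower. They were Cdh13, T-cadherin, which binds adiponectin at the cell surface, with levels of -1.73, -0.44 and 3.02 in SVC, SPA and MA, and Gstk1, an enzyme tied to adiponectin multimer assembly, with a log2 ratio of 2.54. The adaptor Appl1, which binds the adiponectin receptors, was at 0.86, 0.95 and 0.65, close to level as Adipor1 was. Of the 9 C1q/TNF paralogs of adiponectin, 4 were at least 5-fold higher in MA than in SPA. C1qtnf12 was 11.1-fold higher, and C1qtnf9, not well above background in SVC or SPA, at least 46.2-fold higher, or a log2 ratio of at least 3.30 with the normexp correction. C1qtnf1 and C1qtnf3 were called too, at 5.08-fold and at least 5.48-fold, and both fell short of 5-fold with the normexp background correction. C1qtnf3 did so by more with the median of its probes, at a log2 ratio of 0.43. Of 9 further members of the PAQR family, to which the adiponectin receptors belong, 3 were higher. Paqr9 had a log2 ratio of 6.15, Paqr4 of 2.57 and Paqr6 of 2.45, the last of them under 5-fold with the normexp correction, at 1.204, and with the median of its probes, at 1.77.

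Of 5 genes for the resistin family and its partners, the paralogs Retnla and Retnlg were at least 5-fold higher in MA than in SPA. Retnla, a product of alternatively activated macrophages and of fat, had levels of -0.93, -1.26 and 7.17 and so did not share the first step of Retn. Retnlg was not well above background in SVC or SPA and was at least 11.3-fold higher in MA, a bound that the normexp correction brought under 5-fold. Cap1, which binds human resistin, and Tlr4 had log2 ratios of -1.54 and -0.59. Among 6 genes of leptin signalling, Socs3, the feedback inhibitor of the leptin receptor, was 26.7-fold higher in MA than in SPA. The receptor itself, Lepr, stayed near level at 3.51, 3.69 and 3.33. Among 6 genes of the alternative complement pathway, Cfb, the substrate of adipsin, was 8.92-fold higher in MA than in SPA, and C3ar1, the receptor of the C3a fragment, was 8.41-fold lower. C3 had levels of 5.55, 5.23 and 6.91 and stayed under the limit.

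Of 5 genes for retinol transport 3 were tested, and only Stra6l, a further receptor of retinol-binding protein, passed, at least 41.4-fold lower in MA, where it was not well above background. With the normexp correction its log2 ratio was -2.91. Stra6, a receptor of retinol-binding protein, was at 0.09, 0.31 and 0.49, with no difference past 2-fold. Of 8 genes for NAD synthesis and use, Nnmt, which methylates nicotinamide, was 7.53-fold higher in MA than in SPA. In the renin-angiotensin list, 8 of 10 genes were tested. Agtr1a, an angiotensin II receptor, was 5.36-fold and Enpep, an aminopeptidase that trims angiotensin II, 12.1-fold higher in MA, Agtr1a under 5-fold with the normexp correction, and Ren1 stayed at -2.82, -3.08 and -2.73. Aplnr, the apelin receptor, was not marked as well above background in SVC and had levels of -4.77 in SPA and -0.65 in MA, a 17.4-fold difference that fell to a log2 ratio of 2.12, under the limit, with the normexp correction. Aplnr is also an endothelial gene, and all 5 endothelial markers were higher in MA. Whether this bears on the Aplnr difference was not tested.

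Of 19 other adipokines, 18 were on the arrays and 17 were tested for MA over SPA. At least 5-fold higher in MA were Sfrp5, a secreted Wnt inhibitor, at 119-fold, Nrg4, an EGF family ligand of brown and white fat, at 85.7-fold, the cytokine gene Il6 at 37.4-fold, the apolipoprotein gene Apoe at 18.4-fold and Angptl4, an inhibitor of lipoprotein lipase, at 8.60-fold. Rarres2, the precursor of chemerin, had levels of 2.78, 4.37 and 6.60 and passed only for MA over SVC, at 14.1-fold. Lcn2 went the other way, with levels of 2.80, 2.40 and 0.26, and was 5.83-fold lower in MA than in SVC. Between SVC and SPA the largest difference of the list was 4.07-fold, in Angptl4. Ccl2, a chemokine gene that many stromal cells express, had levels of 7.36, 6.24 and 6.67.

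**Figure D4:**
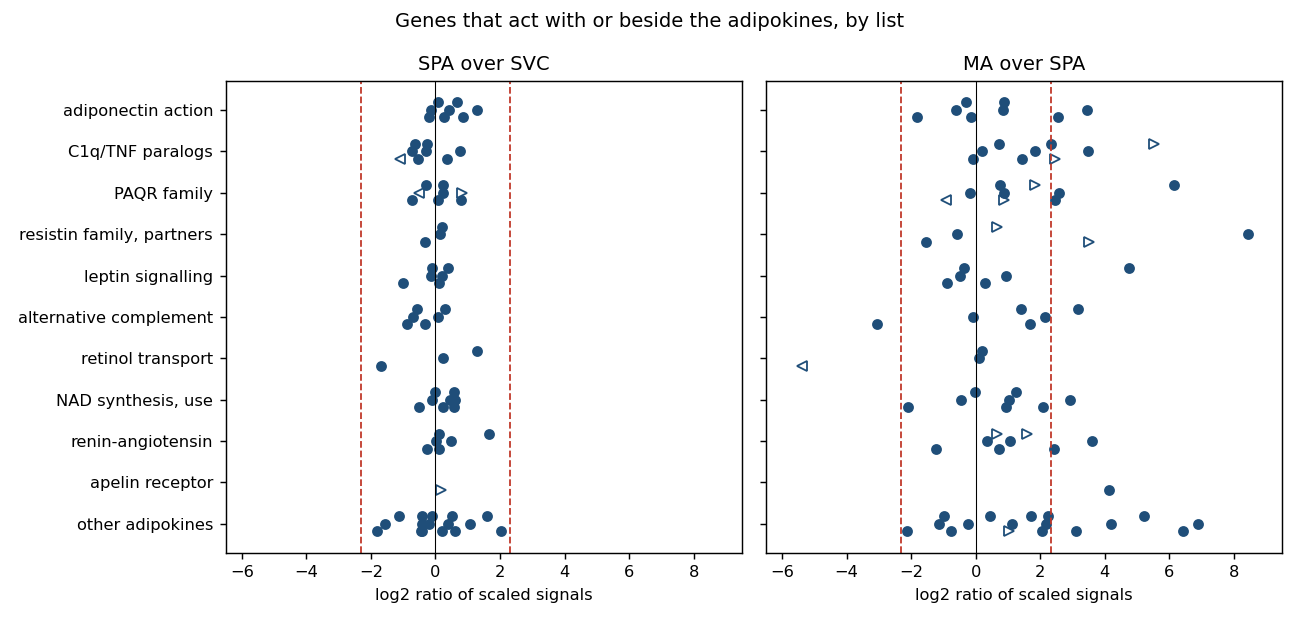
Log2 ratios (x axis) of the genes on the 11 lists (rows) for SPA over SVC and MA over SPA, 1 symbol per gene with a ratio. Open triangles are bounds and dashed red lines the 5-fold limit in each direction. No gene passes the limit on the left, and 22 lie past it on the higher side on the right.

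**Figure D5:**
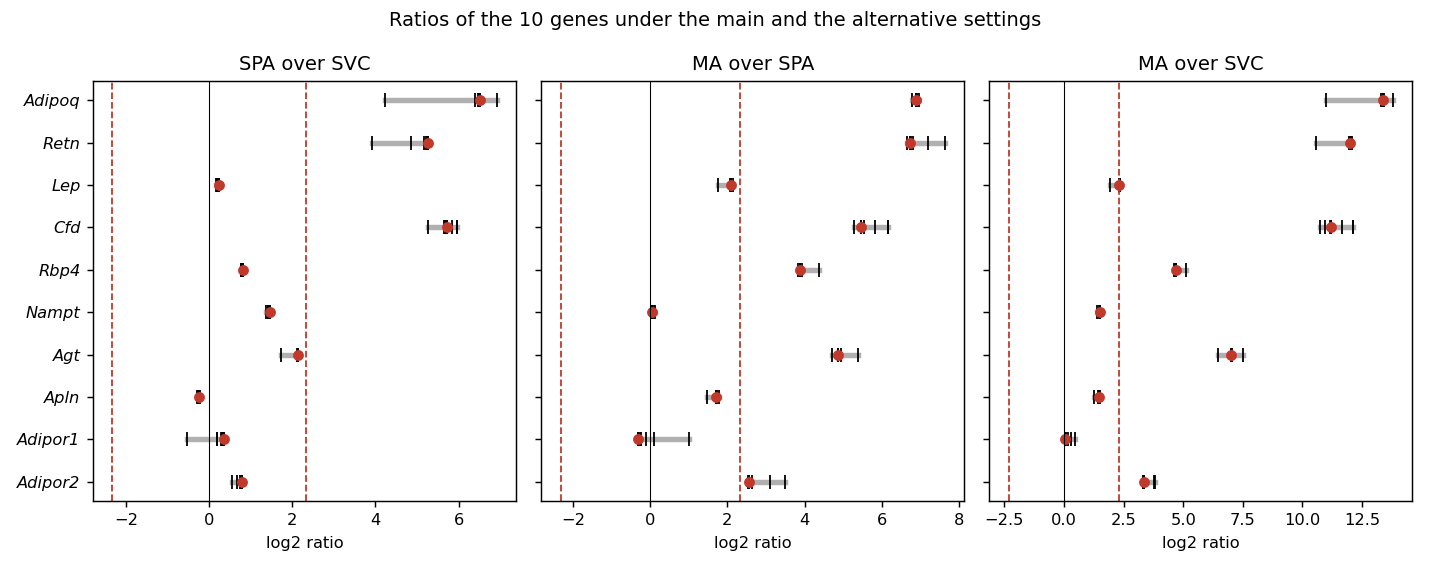
Log2 ratios (x axis) of the 10 genes in the 3 comparisons under the main setting (red circles) and the alternative settings (black ticks, with grey bars over their range). Dashed red lines are the 5-fold limit. Only Adipor1 changes side of 0, and only Lep, for MA over SVC, changes side of the limit.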

How the data were processed

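RNA of SVC, SPA and MA was labelled with Cy3 from 50 ng of total RNA and hybridized to 1 Agilent 1-colour mouse array each. Samples were grouped by their labels. The authors deposited the intensity of each spot from Agilent Feature Extraction 10.7.3.1, named in the submitters' processing notes, as a processed signal after background subtraction, with flags and, per the file headers, a spot error. They also deposited a ratio per spot, which equals the processed signal over 1 constant per array to a relative 1.37e-06. The medians of these ratios were 0.07, 0.08 and 0.08 in SVC, SPA and MA, they are linear and not centred on genes, and how the constant was set is not given in the sources used here.

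Control and outlier spots were left out, spots of a probe were averaged on the log2 scale, and each array was scaled to its 75th percentile. A gene was tested where at least 1 of both arrays was well above background. A bound is the higher of the own signal of the probe and the lowest signal well above background on that array, 13.9, 12.5 and 10.3 in SVC, SPA and MA. The number of arrays limits the precision, and signal over background limits dim probes. The members and lists were chosen with earlier results of these data known. Named were the 10 genes, list genes at least 5-fold apart or acting directly with a member, and the 3 nearest genes of each member. Results for some of the genes that this rule names are not reported here. Names are those of the arrays, updated by accession through a RefSeq table of GRCm38.p6 (32994 of 56605 probes matched, 1535 renamed, 0 members renamed). Apela, Asip and Naprt1 were not matched by name. The alternatives were 9 planned settings and 1 added later. The script that reads the ratios was tested on simulated data. Python 3.11.15, numpy 2.4.6, pandas 2.3.3 and matplotlib 3.10.9 were used, and limma 3.58.1 in R 4.3.3 for normexp with an offset of 50.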

Additional observations from a re-analysis of the deposited data

How the results depend on the processing

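Of 268 ratios of the 10 genes under alternative settings, 263 kept their direction and their side of the 5-fold limit. Part of this count was fixed in advance. Settings that choose among probes cannot change a gene with 1 probe. Settings for dim probes cannot change a ratio for which both arrays were well above background. Lep for MA over SVC came under the limit with the normexp background correction (log2 ratio 1.93) and with the deposited ratios (2.31). Adipor1 changed sign at its probe with the largest ratio, to -0.54 for SPA over SVC and 1.00 for MA over SPA, and for MA over SPA without spots of outlying local background, to 0.10. The causes were not tested. Of the 10 genes, 3 passed 5-fold upward for SPA over SVC, and 5 with a limit of 2-fold, which lets more genes pass by construction. Where both arrays had to be well above background it was 2, because Adipoq has a bound in SVC. For Adipoq the log2 bound of SPA over SVC was 6.52 in the main setting and 4.23 with the normexp correction. With no filter on dim probes the value was 6.93, which is a plain ratio to the undetected SVC spot and no bound. Among list genes that stayed past 5-fold for MA over SPA, the normexp correction lowered the log2 ratio of Paqr9 to 4.11, of Sfrp5 to 5.70, of Nrg4 to 4.98 and of Enpep to 2.42. Over all genes, 73 were higher and 80 lower for SPA over SVC, against 30 and 15 with the normexp correction and 287 and 159 with no filter on dim probes. The normexp setting adds an offset of 50 to every spot, which draws the ratios of dim spots toward 0 by construction. The normexp correction also brought the counts to 762 and 459 from 1318 and 957 for MA over SPA, and to 782 and 441 from 1349 and 935 for MA over SVC. No paired analysis was possible because each group holds 1 array, and for the same reason no replicate could be left out.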

Other observations

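The smooth muscle and pericyte list did not move as 1 group. Acta2 and Tagln, contractile genes that cultured stromal cells also express, were 6.48-fold and 8.58-fold lower in MA than in SPA, and Cnn1 was 13.5-fold lower in SPA than in SVC. Unlike Acta2 and Tagln, Myh11 of the same list had more signal in MA than in SPA, by 2.09-fold. With 2-fold as the limit, MA over SPA gave 3 genes of this list as lower and 2 as higher. Rgs5, a pericyte gene, was 40.2-fold higher in MA than in SPA, beside the endothelial genes Cdh5, at 18.9-fold, and Kdr, at 16.0-fold. Of the 5 fibroblast markers, Lum, Col3a1 and Dcn, which encode matrix proteins, were 27.2-fold, 7.32-fold and 3.90-fold higher in MA than in SPA. Col1a1 differed by 1.12-fold between these fractions, and Pdgfra, a marker of adipocyte precursors, was 4.14-fold lower in MA. Set against SVC, Pdgfra was 5.76-fold lower in MA. None of these ratios has a replicate check.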
